A study of Mus musculus with 8 samples.

Results

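The genes described here are those that type I interferon switches on in a cell. They were taken as a list of 38 symbols, of which 37 had a feature row in all 4 RNA matrices of a single-cell study, out of 32285 genes measured. Mx1 was not analysed here. The cells were conventional CD4 T cells from Foxp3-Cre-YFP mice with experimental autoimmune encephalomyelitis (EAE), the standard model of multiple sclerosis in mice, in which T cells against myelin enter the brain and spinal cord. Tissue was taken at day 14, the acute phase, or at day 50, the chronic phase, and the brain was freed of its meninges. The sort kept TCRβ+ CD11b- cells that were CD44+, a sign of earlier contact with antigen, and that lacked the Foxp3-YFP reporter of regulatory T cells. All 4 groups share the reporter allele, the immunization and the sort, and no group of unimmunized animals or of cells from another organ is among them. Each group is 1 RNA library with counts for 3 surface antibodies, and the labels do not give the number, sex or age of the mice behind a library.

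Type I interferons are secreted proteins, chiefly interferon alpha and beta, that bind a receptor of 2 chains, Ifnar1 and Ifnar2. The kinases Jak1 and Tyk2 then activate Stat2, which joins Irf9 in a complex that binds the interferon-stimulated response element in front of its target genes. The targets include sensors of viral RNA and DNA, proteins that block viral replication, the ubiquitin-like protein Isg15, and regulators that feed back on the pathway. Interferon beta is a long-used treatment of multiple sclerosis, and interferon gamma, the type II interferon made by T cells themselves, shares part of this target set.

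The response element can be seen in the DNA in front of several members. For the members below, the 200 bases before the RefSeq start in the promoter table are given 5′ to 3′ on the gene's own strand. Coordinates are of GRCm38.p6, the assembly of mm10. For Ifit3 and Oas1a this start lies inside the RefSeq gene span (chr19:34583119-34588982 and chr5:120896256-120907544). The Ifit3 window therefore lies within its span, and the Oas1a window overlaps its span. Capitals mark each match to GAAANNGAAA on either strand, where N is any base and matches may overlap, so that a match on the other strand reads TTTCNNTTTC. The first 4 are genes called lower in spinal cord than in brain at both times, and the last 2 are genes called at neither.
Isg15 (chr4:156200819-156201018, minus strand): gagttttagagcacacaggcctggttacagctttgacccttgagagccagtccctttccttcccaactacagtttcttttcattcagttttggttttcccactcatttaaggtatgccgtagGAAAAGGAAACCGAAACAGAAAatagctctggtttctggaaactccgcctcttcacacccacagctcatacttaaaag
Ifit3 (chr19:34583329-34583528, plus strand): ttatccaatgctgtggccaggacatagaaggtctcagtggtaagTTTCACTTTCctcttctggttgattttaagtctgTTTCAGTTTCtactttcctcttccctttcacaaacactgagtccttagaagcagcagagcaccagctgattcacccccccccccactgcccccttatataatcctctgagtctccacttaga
Rsad2 (chr12:26456453-26456652, minus strand): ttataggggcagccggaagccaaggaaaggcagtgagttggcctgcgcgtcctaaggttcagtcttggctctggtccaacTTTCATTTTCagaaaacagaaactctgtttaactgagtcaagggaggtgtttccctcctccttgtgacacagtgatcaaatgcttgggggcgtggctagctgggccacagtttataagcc
Oas1a (chr5:120907526-120907725, minus strand): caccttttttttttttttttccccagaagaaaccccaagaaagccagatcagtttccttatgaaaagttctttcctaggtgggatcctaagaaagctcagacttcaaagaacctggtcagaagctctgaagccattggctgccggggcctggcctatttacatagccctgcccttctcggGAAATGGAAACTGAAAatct
Slfn2 (chr11:83064912-83065111, plus strand): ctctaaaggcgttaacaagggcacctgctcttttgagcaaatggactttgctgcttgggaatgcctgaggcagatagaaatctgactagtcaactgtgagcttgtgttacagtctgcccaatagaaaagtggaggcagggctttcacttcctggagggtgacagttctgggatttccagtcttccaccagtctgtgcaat
Samd9l (chr6:3399572-3399771, minus strand): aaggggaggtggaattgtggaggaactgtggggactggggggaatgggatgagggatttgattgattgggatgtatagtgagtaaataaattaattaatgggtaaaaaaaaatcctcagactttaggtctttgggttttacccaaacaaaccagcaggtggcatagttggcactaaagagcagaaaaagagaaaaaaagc

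The Isg15 window holds 3 overlapping matches, the Ifit3 and Oas1a windows 2 each and the Rsad2 window 1, while the Slfn2 and Samd9l windows hold none. No match says only that these letters are not in this window. Over the 250 bases before each start, 16 of the 31 members in the promoter table had a match (51.6%), against 936 of all 27025 genes in it (3.46%). Dhx58, Zbp1, Usp18, Ifi27l2a, Rtp4 and Parp14 have no entry in that table.

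The 4 libraries differed widely in size. Cells under 500 genes or over 10% mitochondrial counts were left out. Brain then held 10313 cells at day 14 and 348 at day 50, and spinal cord 9270 and 1620. They held 47272714, 1177903, 50710551 and 6078142 RNA molecules, counted as unique molecular identifiers (UMIs), in the order acute brain, chronic brain, acute spinal cord and chronic spinal cord, and values in series of 4 keep this order throughout. Median UMIs per cell lay between 3014 and 4921. By their RNA the cells were T cells without the Foxp3 transcript: T cell receptor, CD3, Cd2 and Cd4 transcripts summed to 6989 to 7297 UMIs per 1000000 RNA UMIs (CPM), and Foxp3 to at most 0.165 CPM. Markers of plasmacytoid dendritic cells, a main source of interferon alpha, summed to 2.56 to 8.06 CPM with Bcl11a at 0 in every library. Ccr9 alone gave 2.52 to 7.73 CPM of this. Markers of monocytes and macrophages summed to at most 2.33 CPM, and those of microglia to 14.4 to 38.2 CPM. Oligodendrocyte markers summed to 45.84 to 75.55 CPM, of which Mbp gave 42.45 to 74.62 CPM. Endothelial markers summed to 16.45 to 60.58 CPM, of which Pecam1 gave 16.12 to 60.30 CPM. Dendritic cell markers reached 96.8 CPM in the chronic brain and 10.9 to 14.2 CPM elsewhere, and 56 of the 63 UMIs of Cd74 there came from 1 cell. That cell held 7 of the 5705 member UMIs of its library, and every member call was the same without cells of 10 or more Cd74 UMIs. The day 14 brain and day 14 spinal cord libraries shared 33 cell barcodes, and the other pairs 0 to 4.

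Levels are given in CPM with, where an error is stated, an exact Poisson 95% interval, and ratios between libraries with the exact 95% interval of the conditional binomial. These intervals hold the error of counting alone, and with 1 library a group no difference below has a replicate check or a p-value. Cells of 1 library are not replicates. Ratios are on the log2 scale after subtracting the median over all genes with at least 10 UMIs in the pair of libraries, which was 0.20 for spinal cord against brain at day 14, 0.03 at day 50, 0.02 for day 50 against day 14 in brain and -0.29 in spinal cord. A member is called higher or lower where this ratio reaches 1.5-fold in either direction with an interval that excludes 1. Oasl1, with 57, 2, 21 and 2 UMIs, was too low to compare between the day 50 libraries, and each of the other comparisons held all 37 members.

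Taken as a sum, the members made up more of the RNA in brain than in spinal cord at both times. The summed level in brain was 4288 CPM (95% interval 4270 to 4307) in the acute phase and 4843 CPM (4718 to 4971) in the chronic phase. In spinal cord it was 2745 CPM (2731 to 2759) and 3240 CPM (3195 to 3286). A single gene carries much of this sum. Ifi27l2a, a small membrane protein strongly induced by interferon, gave 43.1%, 49.6%, 22.9% and 40.5% of the member UMIs. Without it the sums were 2440, 2439, 2116 and 1928 CPM, so that brain still exceeded spinal cord at both times, while the 2 brain libraries were level and day 50 lay below day 14 in spinal cord. Relative to the all-gene median, the sum without it lay above its day 14 value in spinal cord at day 50 (0.16 on the log2 scale), so this direction turns with the scaling.

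**Figure D1:**
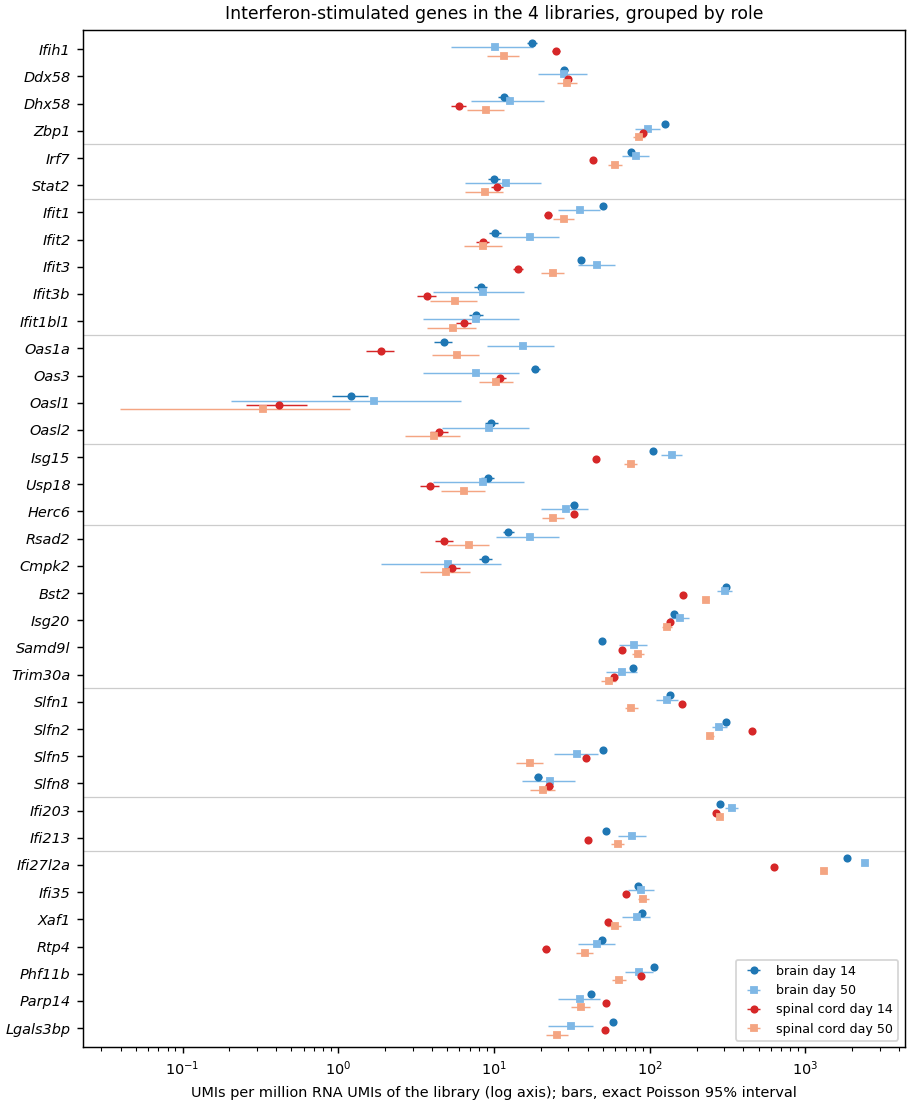
Level of each of the 37 members in the 4 libraries, in CPM on a log axis, with exact Poisson 95% intervals and grey lines between roles. Ifi27l2a lies far to the right at 629 to 2404 CPM, spinal cord at day 14 is the lowest library for Irf7, Isg15, Ifit3, Rsad2 and Bst2, and the intervals of the small day 50 brain library are the widest.

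At day 14 many members were lower in spinal cord than in brain, and this comparison held the most lower calls of the 4. Of 37 members, 20 were called lower and 0 higher, where 6.24% of all 13868 genes compared were called lower and 6.40% higher. The median member ratio was -0.60, and 31 members lay below the all-gene median. Without the shift to that median, 17 were called lower and 0 higher, against 3.66% and 14.7% of all genes. Dhx58, Irf7, Ifit1, Ifit3, Ifit3b, Oas1a, Oasl2, Isg15, Usp18, Rsad2, Bst2, Ifi27l2a and Rtp4 were called lower under every alternative way of processing that was tried.

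All 4 members of the OAS group, enzymes and relatives that sense double-stranded RNA, were called lower in spinal cord, from -0.95 in Oas3 to -1.74 in Oasl1, a gene of 57 against 21 UMIs. Among the IFIT proteins, which bind foreign RNA ends, Ifit1 (49.9 CPM in brain, 22.1 in spinal cord), Ifit3 (36.3 and 14.3) and Ifit3b (8.21 and 3.69) had ratios of -1.38, -1.55 and -1.35, while Ifit2 (-0.46) and Ifit1bl1 (-0.46) were not called. Ifit3 and Ifit3b are near-identical copies, so the split of reads between them is uncertain. Rsad2, the radical enzyme viperin, stood at 12.3 CPM in brain and 4.77 in spinal cord, a ratio of -1.57 (95% interval -1.79 to -1.35).

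Isg15, the ubiquitin-like protein that is joined to other proteins during the response, had 105.6, 138.4, 45.4 and 75.4 CPM. Both brain libraries lie above both spinal cord libraries. The ratio of spinal cord to brain was -1.42 (-1.49 to -1.35) at day 14 and -0.91 (-1.17 to -0.64) at day 50. Usp18, the protease that removes Isg15 and restrains the receptor, was called lower at day 14 (9.14 and 3.87 CPM) and not at day 50 (8.49 and 6.42 CPM, from 10 and 39 UMIs). Herc6, the mouse ligase that attaches Isg15, was at 24.0 to 32.7 CPM in all 4 libraries and was called in no comparison.

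Irf7, the factor that amplifies interferon production, had 76.0, 81.5, 43.2 and 60.1 CPM. It was lowest in the acute spinal cord and near level between the brain libraries. The tissue ratio was -1.02 (-1.09 to -0.94) at day 14 and -0.47 (-0.80 to -0.13) at day 50, the latter not called. Stat2, the subunit that joins Irf9 in the complex, lay between 8.72 and 11.9 CPM and was called in no comparison.

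Bst2, the tether that holds virus particles to the cell surface, had 308.6, 302.2, 164.7 and 228.7 CPM, with the acute spinal cord again lowest. Its tissue ratio was -1.11 (-1.15 to -1.07) at day 14 and -0.43 (-0.60 to -0.26) at day 50. Ifi27l2a had 1849, 2404, 629 and 1312 CPM in the same order, with ratios of -1.75 (-1.77 to -1.74) at day 14 and -0.90 (-0.96 to -0.84) at day 50. Xaf1, a pro-apoptotic partner of XIAP, had 88.6, 82.3, 54.1 and 59.4 CPM and a ratio of -0.91 (-0.98 to -0.84) at day 14. Rtp4, a receptor chaperone with antiviral activity, was below 50 CPM throughout and had -1.40 (-1.50 to -1.29).

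Another group of members did not share this tissue difference. Samd9l, which restrains translation in virus-infected cells, had 49.5, 78.9, 66.5 and 84.4 CPM, and its ratio at day 14 was 0.23 (0.15 to 0.30). Slfn2, a Schlafen protein needed for T cells to stay quiescent and survive, was highest in the acute spinal cord at 452.9 CPM, against 308.5 and 280.2 in brain and 245.5 in spinal cord at day 50. Its ratio at day 14 was 0.35 (0.32 to 0.38), and Slfn1 (0.05), Slfn8 (0.04), Ifih1 (0.31) and Parp14 (0.13) also lay above the all-gene median. None of these 6 was called. Of the other members written here for their level, Isg20, an exonuclease of RNA, had 142.6, 155.4, 135.7 and 128.7 CPM and was called in no comparison.

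**Figure D2:**
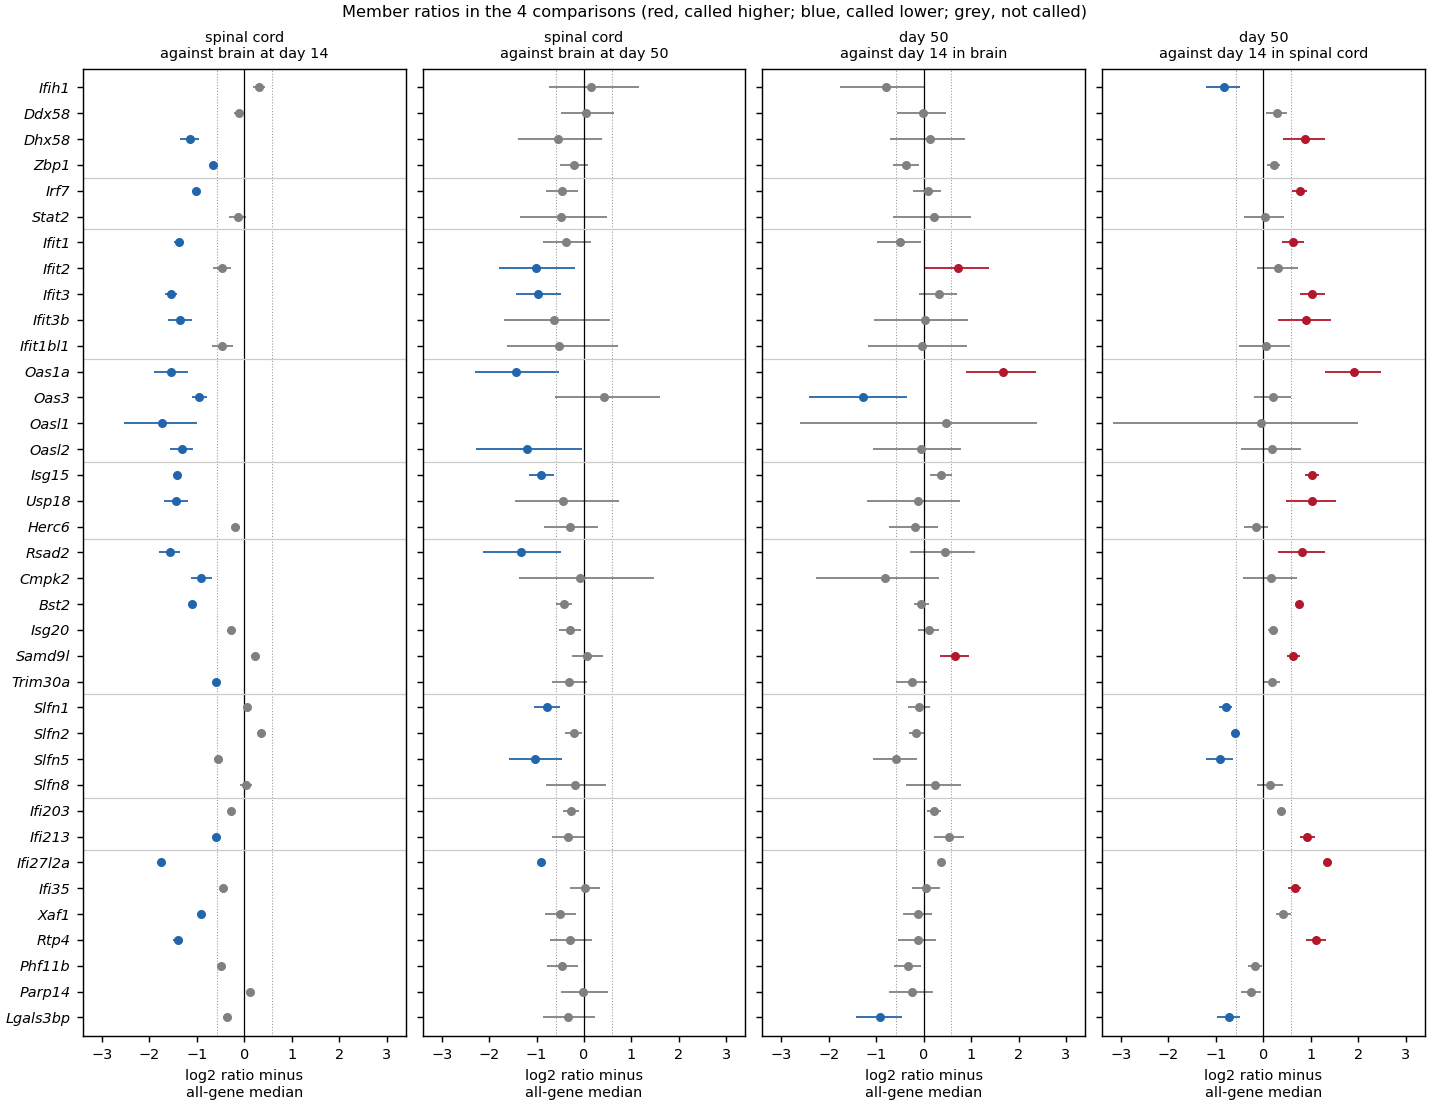
Ratio of each member in the 4 comparisons, on the log2 scale after subtracting the all-gene median, with exact 95% counting intervals, dotted lines at 1.5-fold and colours for calls. The first panel leans left with 20 lower calls, the last holds 15 higher and 5 lower calls, and the day 50 brain library gives the wide intervals of the middle panels.

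The PYHIN genes are relatives of DNA sensors. Ifi203 had 284.1, 335.3, 267.2 and 282.7 CPM and Ifi213 52.4, 77.3, 40.01 and 62.2 CPM, and Ifi213 was called lower in spinal cord at day 14 (-0.59) only with the shift to the all-gene median. The same holds for Zbp1, a sensor of Z-form nucleic acid with 124.8, 97.6, 90.2 and 85.7 CPM (-0.67), and for Trim30a, a ligase that dampens inflammatory signalling with 77.5, 66.2, 58.8 and 54.6 CPM (-0.60). Ifi35 (83.9, 88.3, 70.4 and 91.2 CPM), Phf11b (106.9, 85.8, 87.8 and 63.5 CPM) and Lgals3bp, a secreted galectin ligand (58.5, 31.4, 51.8 and 25.5 CPM), had day 14 ratios of -0.45, -0.48 and -0.38 and were not called. Among the sensors of viral RNA, Dhx58 was called lower (11.5 and 5.94 CPM, -1.16), Ddx58 was level in all 4 libraries at 28.0 to 29.7 CPM, and Ifih1 had 17.6 CPM in brain and 25.02 in spinal cord at day 14.

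At day 50 the median member again lay lower in spinal cord than in brain. Of 36 members compared, 9 were called lower in spinal cord and 0 higher, against 4.72% and 2.26% of 10309 genes, with a median ratio of -0.40. Without the shift to the all-gene median, the median ratio of the members was -0.40 at day 14 and -0.38 at day 50. The 9 were Ifit2, Ifit3, Oas1a, Oasl2, Isg15, Rsad2, Slfn1, Slfn5 and Ifi27l2a. Only Rsad2 and Slfn5 were called under every alternative. Leaving the fold of 2 aside, Isg15, Slfn1 and Ifi27l2a held as well, and Ifit2, Ifit3, Oas1a and Oasl2 did not. The comparisons at the 2 times share no library: 27 of the 36 members lay below the all-gene median in both, Ifih1 and Samd9l lay above it in both, and Ifit3, Oas1a, Oasl2, Isg15, Rsad2 and Ifi27l2a were called lower in both. Shares of all genes on the same side or called in both are not given, so these overlaps have no background beside them. The brain library at day 50 rests on 348 cells, and a member at 10 CPM has about 12 UMIs there, as Ifih1 did.

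Slfn1, a Schlafen protein linked to the arrest of the cell cycle, was called between the tissues only at day 50. It had 135.6, 129.0, 160.9 and 76.3 CPM, so that the chronic spinal cord library stood below the others. The tissue ratio was 0.05 (7.8e-05 to 0.09) at day 14 and -0.79 (-1.05 to -0.51) at day 50. Slfn5, a Schlafen protein that can act on interferon target genes in the nucleus, had 50.1, 34.0, 39.1 and 17.0 CPM, with tissue ratios of -0.56 (-0.64 to -0.47) and -1.03 (-1.57 to -0.47).

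In brain, few members were called between day 50 and day 14. Of 37 members, 3 were called higher and 2 lower, against 4.91% and 6.15% of 12802 genes, and the median ratio was -0.03. These shares are near the background. The count moved with the processing: with no filter beyond 1 UMI, 1 was higher and 7 lower (median -0.33), and on cells thinned to 2000 UMIs 2 were higher and 6 lower (-0.23). The all-gene median that is subtracted moved as well, from 0.02 to 0.32 with no filter and to 0.06 on thinned cells. Shares of all genes called are not given for these settings, so these counts have no background beside them. Oas1a was the member with the largest ratio, from 4.74 CPM at day 14 to 15.3 at day 50, a ratio of 1.67 (0.89 to 2.36) that rests on 18 UMIs in the day 50 library and was called under every alternative. Samd9l (0.66, 0.34 to 0.96) and Ifit2 (0.73, 0.0021 to 1.37, from 20 UMIs) were the other higher calls. Lgals3bp (-0.91, -1.42 to -0.45) and Oas3 (-1.29, -2.42 to -0.36, from 9 UMIs) were lower. Isg15 and Ifi27l2a lay above their day 14 level by 0.37 (0.14 to 0.60) and 0.36 (0.31 to 0.41) and were not called.

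In spinal cord, many members stood higher at day 50 relative to the other genes, and a smaller group lower. Of 37 members, 15 were called higher and 5 lower, against 11.9% and 11.6% of 13175 genes, and the median ratio was 0.28. The lower calls are near their background share and the higher calls are above theirs. This comparison depends on the scale: without the shift, the median was -0.0060, and 8 were called higher and 5 lower, against 6.76% and 23.8% of all genes. Ribosomal protein genes took 30.3% of spinal cord UMIs at day 14 and 37.0% at day 50, and over UMIs that leave out ribosomal and mitochondrial genes the median ratio, not shifted, was 0.13. Beyond this, the part of that share in the result was not tested.

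The acute spinal cord library enters both this comparison and the one between tissues at day 14, so their calls are not independent. Ifi27l2a went from 629 to 1312 CPM, a ratio of 1.35 (1.31 to 1.38). Isg15 went from 45.4 to 75.4 CPM (1.02, 0.87 to 1.16), Ifit3 from 14.3 to 23.9 CPM (1.03, 0.76 to 1.29) and Rtp4 from 21.5 to 38.2 CPM (1.12, 0.91 to 1.33). These 4, with Usp18 (1.02) and Oas1a (1.91, from 95 and 35 UMIs), were called under every alternative. Dhx58, Irf7, Ifit1, Rsad2, Bst2, Samd9l and Ifi35 were called higher only with the shift, and Ifit3b and Ifi213 with and without it.

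The lower group in spinal cord at day 50 was made of Slfn1, Slfn2, Slfn5, Ifih1 and Lgals3bp. Slfn2 fell from 452.9 to 245.5 CPM, a ratio of -0.59 (-0.67 to -0.52), Slfn1 from 160.9 to 76.3 CPM (-0.79, -0.92 to -0.65) and Slfn5 from 39.1 to 17.0 CPM (-0.92, -1.22 to -0.63). Ifih1, the sensor of long double-stranded RNA, went from 25.02 to 11.5 CPM (-0.83) and Lgals3bp from 51.8 to 25.5 CPM (-0.73). All 5 were called with and without the shift, and 0 of them held at a fold of 2. Slfn2 was also not called with a minimum of 30 UMIs (-0.56) or without the 2 cells richest in it (-0.53). Parp14, a factor of Stat6 signalling, had 41.9, 35.7, 52.6 and 36.0 CPM and was called in no comparison.

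The comparisons over time in brain and in spinal cord share no library either. Of 37 members, 16 lay above the all-gene median in both, 8 below it in both and 13 on opposite sides. Oas1a and Samd9l were called higher in both, Lgals3bp was called lower in both, and 0 members were called in opposite directions. The change in spinal cord minus that in brain was above 0 for 27 members, with a median of 0.31, and its counting interval lay above 0 for 14 and below 0 for 2, Slfn1 (-0.70, -0.97 to -0.43) and Slfn2 (-0.44, -0.61 to -0.26). Without the shift it was above 0 for 18 members, with a median of -0.0021, and the interval lay above 0 for 7 and below 0 for 4, so the excess of members above 0 rests on the scaling. For all genes, the shares on the same side, called in both or with such intervals are not given. The counts in this paragraph therefore have no background beside them.

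Seen per cell, brain lay above spinal cord at the median and at the 90th percentile. Each cell was thinned to 2000 UMIs to set depth equal, which left out 1163, 98, 142 and 127 shallower cells, and 1 UMI is then 0.05% of a cell. The median cell gave 0.30%, 0.25%, 0.20% and 0.20% of its UMIs to the members, and without thinning 0.285%, 0.248%, 0.204% and 0.206%. The 90th percentile was 1.05% and 1.06% in brain and 0.55% and 0.70% in spinal cord. Without Ifi27l2a the median was 0.15% in every library, and the 90th percentile 0.55%, 0.45%, 0.40% and 0.35%. The share of cells with at least 10 different members detected was 8.40% (exact Clopper-Pearson 95% interval 7.84 to 8.99), 7.60% (4.64 to 11.6), 4.17% (3.77 to 4.60) and 3.95% (3.02 to 5.07). A population known to lack these genes was not among the cells, so the background that free RNA adds to such shares could not be measured.

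**Figure D3:**
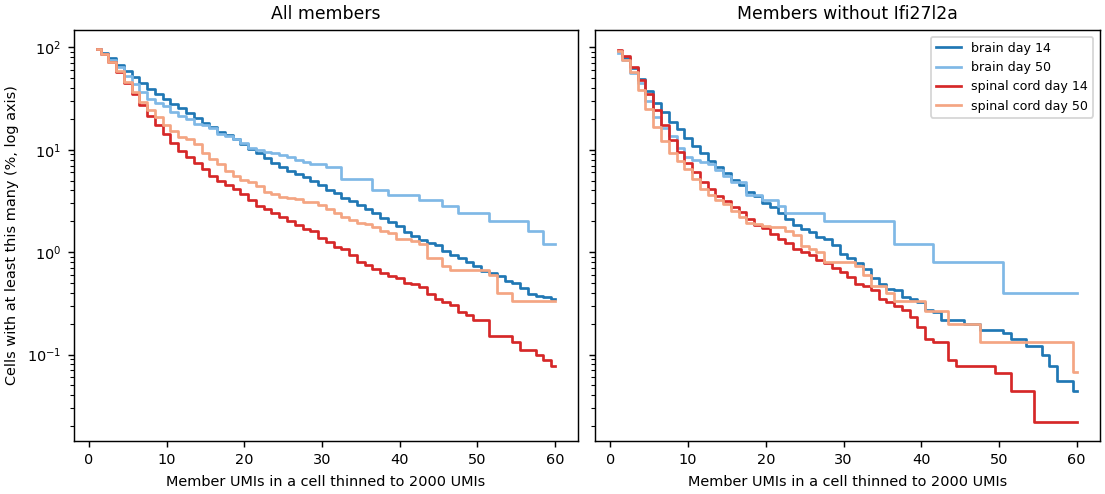
Share of cells (log axis) with at least a given number of member UMIs after thinning to 2000 UMIs, for all members and without Ifi27l2a. With all members, both brain libraries lie above both spinal cord libraries from 10 to 40 UMIs, and the curves draw together without Ifi27l2a, where the day 50 brain curve steps because it holds 250 cells.

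Ranked by their member UMIs, the richest 10% of kept cells held 38.2%, 47.6%, 34.5% and 40.5% of these UMIs, and the richest 1% held 7.47%, 13.2%, 7.29% and 9.44%. The cells were ranked by the same UMIs at unequal depth, so shares above 10% and 1% follow from the ranking. Ifi27l2a was detected in 62.7%, 68.0%, 36.0% and 60.2% of thinned cells, with 6.17, 6.62, 3.67 and 4.45 UMIs on average in those cells. Both its share of cells and its level in them were lowest in the acute spinal cord. Isg15 was detected in 13.5%, 15.2%, 5.80% and 8.77% of cells, at 1.64 to 1.84 UMIs in those cells.

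Members also differed in how far they fell in the same cells. For each member, cells were ranked by the UMIs of all other members, and the share of the member's UMIs in the top 10% of cells was taken, a description within each library. In brain at day 14 this share was 63.0% for Ifit3, 58.3% for Rsad2, 53.6% for Ifit1 and 48.3% for Isg15. It was 31.1% for Irf7 and 32.0% for Bst2. At the lower end stood Ifi27l2a with 23.3%, Ifi203 with 22.1%, Lgals3bp with 19.8% and Slfn2 with 15.01%, where an even spread gives 10%. Over 50% of the UMIs of Ifit3, Rsad2 and Ifit1 lay in the top 10% of cells. The share does not measure how many cells hold a gene. Ifi27l2a counts in the ranking for every other member but not in its own, so its share is not on the same ranking. Its Pearson r over cells with the other members was 0.344 in brain at day 14, beside 0.335 for Ifit3. In spinal cord at day 14 Ifit3 reached 82.6%, Rsad2 86.0% and Isg15 66.4%, and Slfn2 13.6%.

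**Figure D4:**
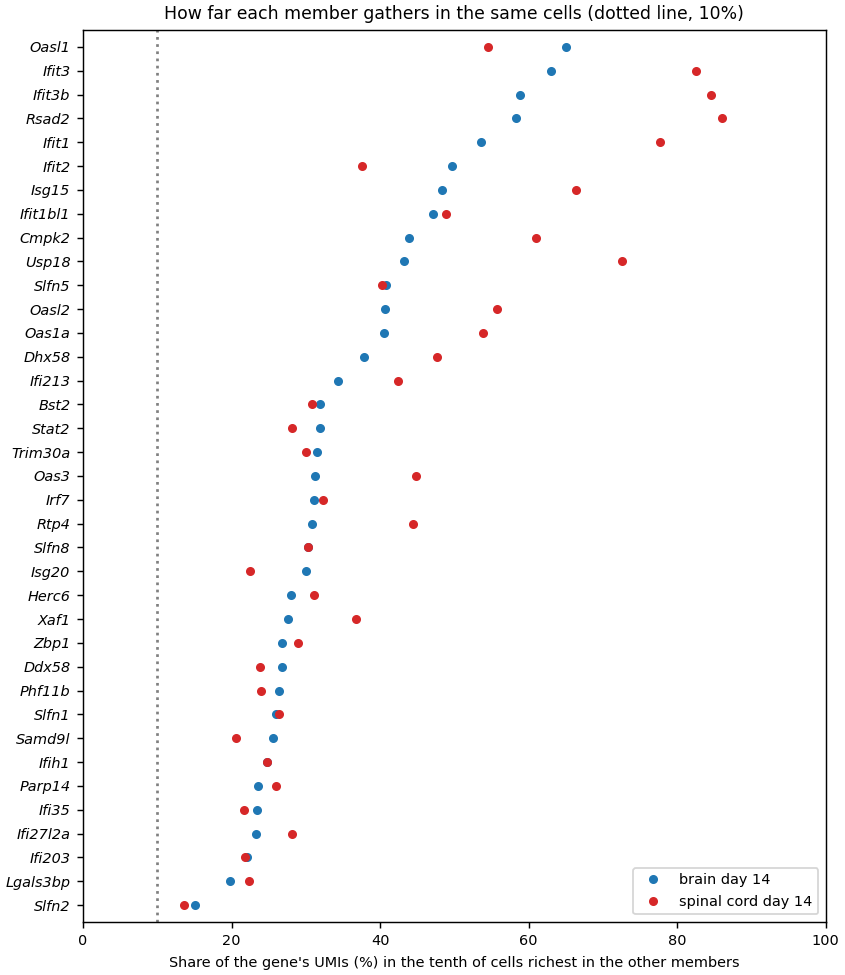
Share of each member's UMIs that lies in the 10% of cells richest in the other members, at day 14, with brain in blue and spinal cord in red and the dotted line at 10%. Oasl1, Ifit3, Ifit3b, Rsad2 and Ifit1 stand at the top with 53.6% to 65.0% in brain, and Slfn2, Lgals3bp, Ifi203 and Ifi27l2a at the bottom with 15.01% to 23.3%. The 65.0% of Oasl1 rests on 20 UMIs in thinned cells.

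Over cells, the correlation of each member with the other members was weak in these sparse counts, with a median Pearson r of 0.18, 0.24, 0.16 and 0.18 over the 37 members. Among 7860 genes outside the list and detected in at least 1% of cells in both day 14 libraries, the 10 whose counts followed the summed members most closely included Ly6a, Ifi206, Ms4a4b, Ifi209, Ifi47, Samhd1, Mndal, Ms4a6b and AW112010. Their r lay between 0.19 and 0.31 in those libraries, where the points share library and thinned depth. For Ly6a, the surface protein Sca-1, it was 0.31 in brain and 0.25 in spinal cord.

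Cells that carried a UMI of certain T cell genes had more or less of the members. In brain at day 14, the mean member share was 0.688% in the 619 cells with a UMI of Gzmk, a granzyme of cytotoxic and memory T cells, and 0.429% in the cells without, a ratio of 1.61, and in spinal cord the ratio was 1.87. It was 1.41 and 1.55 for Izumo1r, folate receptor 4. Cells with a UMI of the cytokine genes Il17a (0.77 and 0.77) and Csf2 (0.74 and 0.81), or of the proliferation gene Mki67 (0.81 and 0.83), had less. At day 50, Gzmk gave 0.77 in brain from 37 cells and 1.18 in spinal cord from 307 cells, and Il17a gave 0.85 from 24 cells and 0.75 from 37. For the surface proteins CD69, P2X7R and CXCR6, the ratio of the mean member share in the highest to that in the lowest quartile of cells by antibody count lay between 0.85 and 1.27 over the 4 libraries. These are descriptions within a library, without a test.

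The other genes of the pathway were read beside the shares of all genes called higher and lower. These shares were 6.40% and 6.24% between tissues at day 14, and 2.26% and 4.72% at day 50. Over time they were 4.91% and 6.15% in brain, and 11.9% and 11.6% in spinal cord. No UMI of the type I ligands Ifnb1, Ifna1, Ifna2, Ifna4, Ifna5 or Ifne was found in any library, which allows up to 0.0635, 2.55, 0.0592 and 0.494 CPM of each. Of the 4 receptor chains, Ifngr2 was called lower in spinal cord at day 14 (7.19 and 3.27 CPM, -1.33) and higher at day 50 than at day 14 in both tissues. Ifnar2, the signalling chain of the type I receptor, was called higher in spinal cord at day 50 (49.3 to 92.3 CPM, 1.19, 1.06 to 1.33). The kinases Jak1, Jak2 and Tyk2 were called in 0 of 4 comparisons.

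The transcription factors Irf9, Irf1, Irf3, Irf5 and Irf8 were called in 0 of 4 comparisons. Of the 4 feedback genes, Socs3, an inhibitor of cytokine receptors, was lower in spinal cord than in brain at day 14 (90.8 and 41.0 CPM, -1.35) and higher in spinal cord at day 50 (100.4 CPM, 1.58). Tmem173, which encodes STING, and Cgas, the DNA sensor upstream of it, were the 2 of 6 upstream genes called. Both were lower in spinal cord at day 50 than at day 14 (-0.79 and -0.82), where 11.6% of all genes were called lower.

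A wider list of 59 interferon-induced genes that are no members was read in the same comparisons. At day 14, Gvin1, an interferon-induced large GTPase, was called higher and 10 genes lower in spinal cord of 53 compared, against 6.40% and 6.24% of all genes, with a median of -0.25. The lower ones included Ube2l6, the conjugating enzyme of Isg15 (12.3 and 6.39 CPM, -1.15). At day 50, Trim21, the antibody receptor of the cytosol, was higher and 7 genes were lower of 51 (median -0.11), against 2.26% and 4.72%. Trim21 rests on 3 UMIs in brain and 53 in spinal cord (1.75, 0.12 to 4.07). Over time 5 were higher and 6 lower of 53 in brain (-0.22), against 4.91% and 6.15%. In spinal cord 9 were higher and 7 lower of 53 (0.10), against 11.9% and 11.6%. The membrane proteins Ifitm1, Ifitm2 and Ifitm3, which block virus entry, were called lower at day 50 in both tissues, Ifitm3 from 368.5 to 98.5 CPM in brain (-1.92) and from 356.9 to 92.1 CPM in spinal cord (-1.67). These folds are larger than that of any member called lower over time.

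A list of genes known for their response to interferon gamma was counted in the same way. Of 21 such genes, 5 were called higher and 1 lower in spinal cord at day 14 (median 0.10), against 6.40% and 6.24% of all genes. The higher ones were Irgm2, Tgtp1, Tgtp2, Ciita and Cxcl9, the last from 33 UMIs in spinal cord and 9 in brain. In spinal cord at day 50, Cxcl9 (9 UMIs) and Cxcl10 were higher and 8 genes lower than at day 14 (median -0.36), against 11.9% and 11.6%. Igtp, a GTPase of defence against parasites, went from 90.4 to 45.1 CPM (-0.72) and Ciita, the master factor of MHC class II, from 6.19 to 0.987 CPM (-2.36). Cxcl10, a chemokine that both kinds of interferon induce, had the direction of the members: 25.6 CPM in brain and 4.16 in spinal cord at day 14 (-2.82, -3.04 to -2.61) and 21.9 CPM in spinal cord at day 50 (2.68, 2.36 to 3.003). Ifng itself was not called in any comparison.

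**Figure D5:**
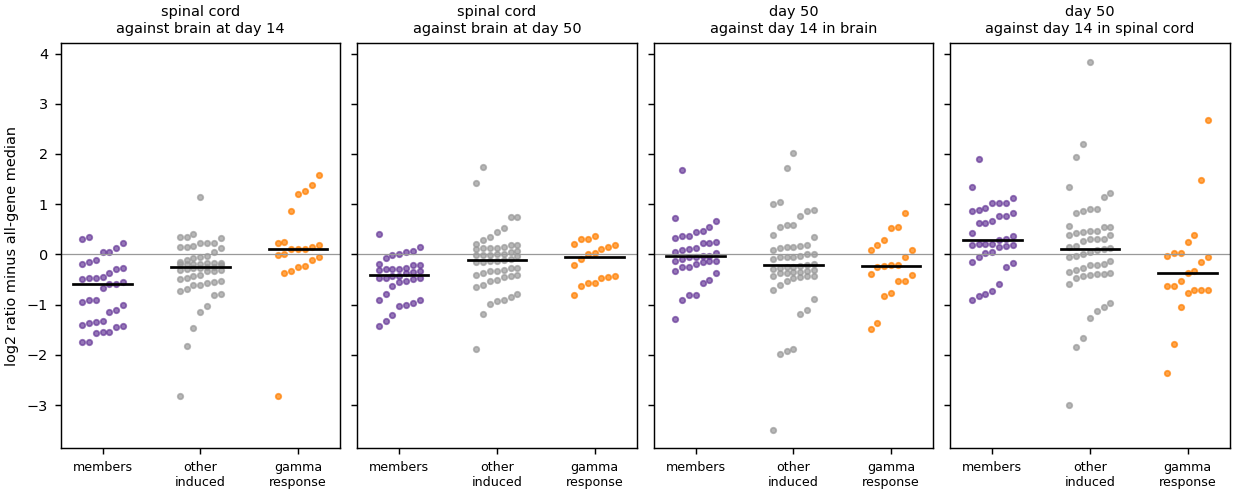
Ratio of every compared gene of 3 lists in the 4 comparisons, on the log2 scale after subtracting the all-gene median, with bars at the list medians. The members lie below 0 between tissues, with medians of -0.60 and -0.40, and above it in spinal cord over time, with a median of 0.28, where the interferon gamma list has -0.36.

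The members with and without a match to the response element both differed between the tissues. At day 14 the 16 genes with a match had a median ratio of -0.77 with 10 lower calls, and the 15 without one -0.38 with 5 lower calls. Of all genes, 6.24% were called lower there. Dhx58, Zbp1, Usp18, Ifi27l2a, Rtp4 and Parp14, without an entry in the promoter table, are in neither set. All of them but Parp14 were called lower in spinal cord at day 14. In spinal cord over time the genes with a match had a median of 0.50 with 8 higher calls and 1 lower, and those without one 0.19 with 3 higher and 4 lower, against 11.9% and 11.6% of all genes. Oasl2 holds no match and was called lower in spinal cord at both times, as were Isg15, Ifit3, Rsad2 and Oas1a, whose matches are printed. Stat2, Ifit1bl1, Slfn8, Ifi203 and Phf11b hold matches and were called at neither time, and their windows are not printed.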

How the data were processed

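Single-cell RNA and 3 antibody features were measured in 4 libraries. The deposited matrices hold raw UMI counts by gene and barcode, per the file headers, made with Cell Ranger 6.1.1 on mm10, per the submitters' processing notes. Nothing was normalized before deposit. Antibody features carry identifiers and names that conflict for P2X7R and CXCR6, and the identifiers were used. Cells under 500 genes or over 10% mitochondrial UMIs were left out; no doublet caller was run, and an alternative left out cells above 3 times their library's median UMIs. Counts were summed per library, scaled to CPM, and compared for genes with 10 or more UMIs over both libraries (Python 3.11.15, scipy 1.17.1). A gene at 0 UMIs was given a limit of 3 counts. The call rule was tested on simulated data with 100 genes changed 2-fold in each comparison. It called 93% of these the right way between the day 14 libraries and 72% between the day 50 libraries. Over time the shares were 58% in brain and 86% in spinal cord. Of the unchanged genes it called 0.783%, 2.28%, 1.79% and 1.03% in the same order of comparisons. With 1 library a group, variation between replicate libraries could not be measured for this test. Shares for 1.5-fold changes and for genes of few UMIs are not given. The shares above are therefore not the sensitivity of the rule for the members. Members at 50 CPM or more in any library are written out; from each other list, up to 6 genes are named, those whose interval lies farthest from 0. The members, lists and rules were chosen with earlier results of these data known. Per comparison 12 alternatives were tried, with others added after the data were seen. Results for 2 genes outside the members are not reported here. Sequences are from RefSeq. Ifit1 and Ifit3b overlap Ifit1bl1, Ifi27l2a overlaps Ifi27, Slfn5 overlaps Slfn5os and Rtp4 overlaps Masp1; whether counting used strand is not given in the sources used here.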

Additional observations from a re-analysis of the deposited data

Results flagged for a closer look

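Members whose ratio had its counting interval on opposite sides of the all-gene median in 2 settings of the same contrast were singled out. With 1 library per group the difference was not tested beyond counting error. Over time, Zbp1 lay above the all-gene median in spinal cord (0.22) and below it in brain (-0.37), a difference of 0.59 on the log2 scale. Without the shift to the all-gene median its ratio was below 0 in both, -0.07 in spinal cord and -0.35 in brain, while the 3 genes that follow kept opposite signs. Ifit1 lay above it in spinal cord (0.63) and below it in brain (-0.50), a difference of 1.13, with 42 UMIs in the day 50 brain library. Between tissues, Slfn1 lay near the all-gene median at day 14 (0.05) and below it at day 50 (-0.79), a difference of -0.83. Slfn2 lay above it at day 14 (0.35) and below it at day 50 (-0.22), a difference of -0.57.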

How the results depend on the processing

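No paired analysis was possible because there was 1 library for each tissue and time. Without the shift to the all-gene median, the median member ratio of spinal cord against brain at day 14 was -0.40, and over time in spinal cord it was -0.0060, on the other side of 0, with 8 higher calls. With the total taken without ribosomal and mitochondrial genes the latter was 0.13. With no filter beyond 1 UMI, the medians were -0.26 between tissues at day 50, -0.33 over time in brain with 1 higher and 7 lower calls, and 0.044 over time in spinal cord with 9 higher calls. Thinned cells gave 5 lower calls between tissues at day 50, and a median of -0.23 with 6 lower calls over time in brain. The mean of cell CPM gave a median of -0.15 with 4 lower calls over time in brain. At a fold of 2, 5 members were lower between tissues at day 50, 1 was higher and 1 lower over time in brain, and 6 were higher and 0 lower over time in spinal cord. Lower calls over time in brain were 5 without the 2 richest cells per gene and 4 with all deposited barcodes. Except for the setting without the shift, shares of all genes called are not given for these alternatives, so their call counts have no background here. The median cell share without thinning was 0.285% in brain at day 14, and 0.204% and 0.206% in spinal cord at days 14 and 50. Leaving out Ifi27l2a, an alternative chosen after seeing the data, brought the ratio of the summed members from -0.84 to -0.41 and from -0.61 to -0.37 between tissues at days 14 and 50, from 0.16 to -0.019 over time in brain, on the other side of 0, and from 0.53 to 0.16 over time in spinal cord. The causes were not tested. Of 147 member ratios, 137 kept their call without the shift and 120 at a fold of 2, and none of the alternatives turned a called ratio to the other side. The depth of the day 50 brain library, 1177903 UMIs, limits every comparison that uses it.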
